A study of Mus musculus with 16 samples.

Results

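The 31 genes described here encode enzymes of cholesterol and fatty acid synthesis, with the transcription factors and sterol-handling proteins that regulate the pathway. They were chosen by name from the 24421 genes of the deposited tables, and all 31 had reads and were tested. RNA was sequenced from the somatosensory cortex of male (by the labels) mice aged 2 to 3 months, collected at ZT4 (zeitgeber time, hours after light onset). Wild-type C57BL/6 mice and homozygous AcPb-/- mice, which lack the neuronal isoform of the IL1 receptor accessory protein, were either left undisturbed (controls) or kept awake by gentle handling from ZT20 to ZT4 (sleep disruption, SD). The 2 genotypes and 2 conditions make 4 groups, each with 3 libraries with values, and a library stands for 1 mouse by the labels.

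Cholesterol is built from acetyl-CoA through mevalonate, squalene and a series of sterol rings, and the brain makes its own because lipoprotein cholesterol does not cross the blood-brain barrier. In the adult brain, neurons take up much of their cholesterol from astrocytes, and oligodendrocytes use it for myelin. The pathway is set by the transcription factors encoded by Srebf1 and Srebf2, which are held in the endoplasmic reticulum by INSIG proteins when sterols are plentiful and are released and cleaved when sterols run low. They then raise transcription of the synthesis genes, of fatty acid synthesis genes and of Insig1 itself.

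RefSeq promoter sequence (GRCm38.p6, 250 bases before to 50 after the annotated start) was at hand for 24 of the 31 genes. Stretches of 150 bases, read on the gene's own strand, are shown for 3 genes that fell after SD in both genotypes, among them a regulator (Srebf2), its brake (Insig1) and an early enzyme (Hmgcs1), and for the 2 that rose (Ebp and Elovl6). Capitals mark the letters TCACNCCAC (a form of the sterol regulatory element), CCAAT (the box bound by the factor NF-Y), GGGCGG (the GC box) and CACGTG (the E-box), searched on both strands, with no overlapping matches.
Hmgcs1, chr13:119690201-119690350, plus strand: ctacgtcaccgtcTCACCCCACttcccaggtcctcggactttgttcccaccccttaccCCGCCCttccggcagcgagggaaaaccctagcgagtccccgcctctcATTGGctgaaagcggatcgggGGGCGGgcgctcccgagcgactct
Insig1, chr5:28071262-28071411, plus strand: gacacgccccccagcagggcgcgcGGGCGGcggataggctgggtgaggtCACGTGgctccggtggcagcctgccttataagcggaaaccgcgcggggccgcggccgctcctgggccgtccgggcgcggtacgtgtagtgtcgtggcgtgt
Srebf2, chr15:82147119-82147268, plus strand: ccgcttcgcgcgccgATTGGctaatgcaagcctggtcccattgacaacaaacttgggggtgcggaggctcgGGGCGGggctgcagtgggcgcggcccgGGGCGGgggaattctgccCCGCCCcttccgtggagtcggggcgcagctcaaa
Ebp, chrX:8193513-8193662, minus strand: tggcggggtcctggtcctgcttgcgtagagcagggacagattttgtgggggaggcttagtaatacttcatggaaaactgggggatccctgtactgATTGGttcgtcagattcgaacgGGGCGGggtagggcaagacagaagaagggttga
Elovl6, chr3:129532236-129532385, plus strand: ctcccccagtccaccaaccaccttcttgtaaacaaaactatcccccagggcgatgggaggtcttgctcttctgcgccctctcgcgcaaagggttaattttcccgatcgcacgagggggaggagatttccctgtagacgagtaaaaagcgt
In the full 300-base windows the letters TCACNCCAC were present in 1.45% of the 17224 genes with a promoter entry and in 1 of the 24 members, Hmgcs1, where the match TCACCCCAC began 137 bases before the start. CCAAT was present in 41.98% of all genes and in 20 of the 24 members, GGGCGG in 49.63% and 19, and CACGTG in 9.17% and 5. Of the 11 genes with an entry that fell in both genotypes, 10 held CCAAT, against 10 of the 13 other members with an entry. The stretch of Ebp, which rose, holds the same CCAAT and GC box letters as those of Hmgcs1 and Srebf2, which fell, and that of Elovl6 holds none of the letters searched.

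Several measured differences between the libraries stand beside all of the results that follow. Of the 6 control libraries, 4 (CTL-WT replicates 2 and 3 and CTL-AcPbKO replicates 4 and 5) held 25352 to 39358 reads of Xist, the RNA of the inactive X chromosome of females, and 0 to 2 reads of Y-linked genes, against their label as male. The 8 other libraries, with every SD library among them, held 5 to 13 Xist reads. Every SD effect within a genotype thus rests on controls of which 2 of 3 held Xist reads, and results are given with and without these 4 libraries. SD libraries were also deeper, with 58770286 to 71857505 reads on genes against 26504840 to 41615582 in controls. Il1rap, which encodes the deleted isoform together with the ubiquitous one, had 31.6 to 42.0 RPM (reads on the gene, scaled to the library total as in CPM) in all libraries, so gene-level counts do not check the deletion. Excitatory cortical neuron markers (Slc17a7, Tbr1, Neurod6 and Mef2c) were all present, with a summed normalized count of 124380 to 133809 in controls and 104944 to 124972 after SD. SD-AcPbKO replicate 4 stood apart by choroid plexus markers, whose sum reached 17380 there and 205 to 483 in the other 11 libraries. In bulk tissue, fewer cells of a type and less RNA per cell cannot be told apart.

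After SD, most genes of early cholesterol synthesis, all 4 regulators and transport genes and fatty acid synthase were downregulated, and the direction was the same in wild-type and AcPb-/- mice. Among the 31 genes the largest declines in wild-type mice were in Insig1 and Mvd, whose counts fell by 0.86 and 0.84 on the log2 scale. The desaturases Scd1, Scd2, Fads1 and Fads2 did not pass the test in either genotype. Ebp, a sterol isomerase, and Elovl6, a fatty acid elongase, were upregulated in both genotypes. Summed over the 31 genes, the controls held 3848 to 4312 RPM and the SD libraries 3318 to 3684 RPM, and these ranges did not overlap. Scd2, which did not pass, makes up the largest part of this sum. In wild-type controls its mean normalized count was 68866, beside 17853 for Fasn, the next highest.

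In wild-type mice 18 of the 31 genes were past the threshold of an adjusted p under 0.05 (limma with a variance trend on log2(normalized count + 1), Benjamini-Hochberg over all 20417 genes tested), 16 of them lower and 2 higher. Among all genes tested, 12.2% were lower and 13.2% higher. In AcPb-/- mice 16 were past the threshold, 13 lower and 3 higher, where 13.3% of all genes were lower and 14.1% higher. The median log2 fold change over the 31 genes was -0.26 in wild-type and -0.14 in AcPb-/- mice, beside -0.0039 and 0.014 over all genes. Genes past the threshold in both genotypes numbered 13 lower and 2 higher, and 9.16% and 10.2% of all genes were lower and higher in both. With the 12 libraries normalized together, all 6 SD libraries lay below all 6 control libraries for 14 of the 31 genes, and above them for 2, which was so for 10.5% and 11.6% of all genes. The plot of log2 fold changes by role shows the declines among the mevalonate, sterol ring and regulator genes, and values near or above 0 for desaturation and elongation.

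**Figure D1:**
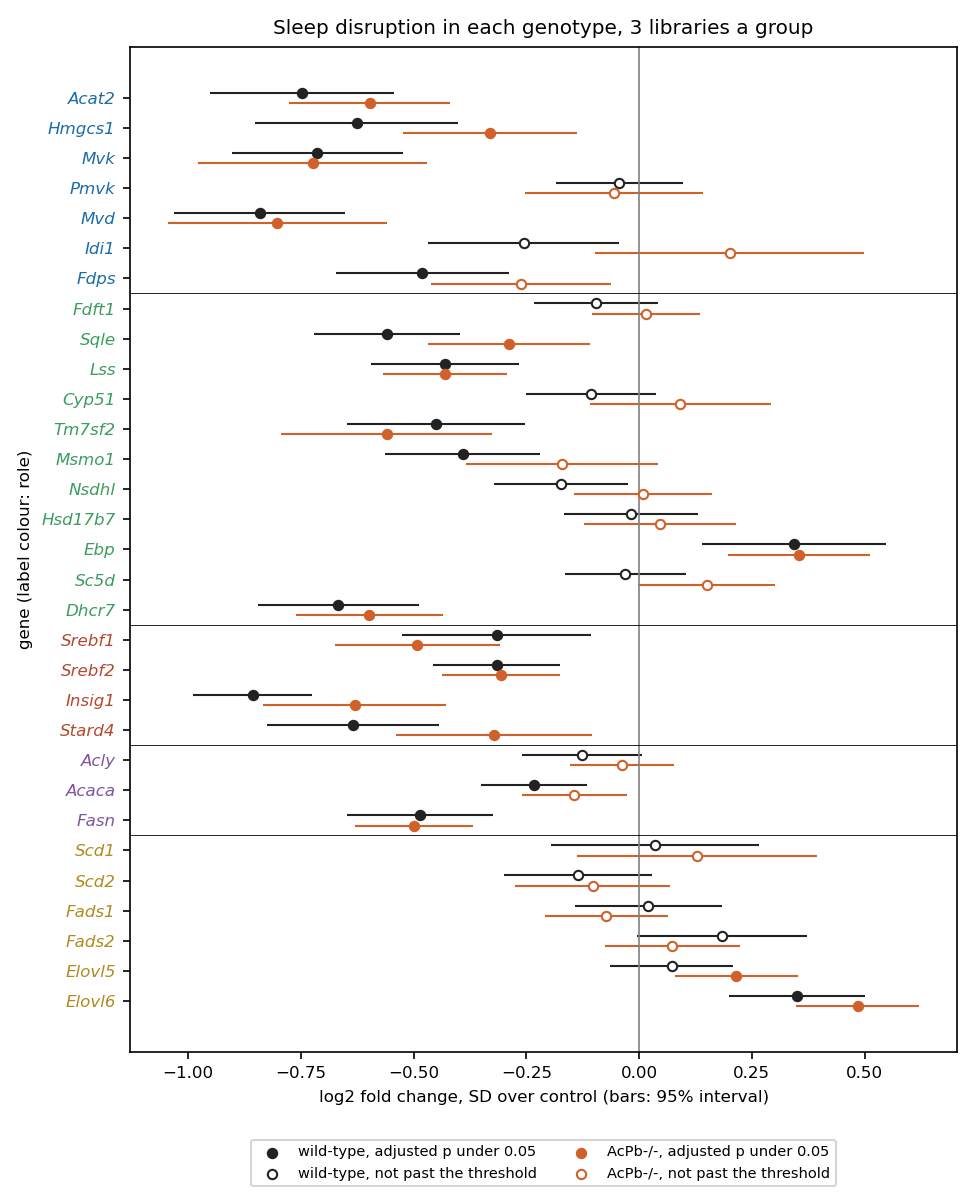
Log2 fold changes of SD over control for the 31 genes in wild-type (black) and AcPb-/- (orange) mice, with 95% intervals as bars, 3 libraries a group, from the limma fit of each genotype. From top to bottom the blocks are the early mevalonate pathway, squalene and sterol ring, regulators and transport, fatty acid synthesis, and desaturation and elongation. Filled points are past an adjusted p of 0.05, and Insig1 and Mvd lie farthest to the left in wild-type mice, at -0.86 and -0.84.

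Without the 4 libraries with Xist reads the median fold change of the 31 genes stayed of similar size, and fewer passed the test within a genotype. A fit of SD over the 12 libraries with genotype as a term put 19 of the 31 genes past the threshold, 16 lower and 3 higher, where 20.6% of all genes were lower and 21.4% higher. Without the 4 libraries the same fit put 17 past it, 15 lower and 2 higher, where 13.3% and 15.2% of all genes were. The median over the 31 genes was -0.19 with the 4 libraries and -0.22 without them. Msmo1, at -0.28 with them and -0.22 without (adjusted p = 0.165), and Elovl5, at 0.14 and 0.12 (adjusted p = 0.212), no longer passed. With a term for Xist reads in place of leaving libraries out, 17 were lower and 2 higher, where 15.0% and 16.2% of all genes were. Within a genotype 1 control library is left, which was assumed to vary like the other groups in a single fit of all 4 groups. The median over the 31 genes was then -0.25 in wild-type and -0.14 in AcPb-/- mice, beside -0.26 and -0.15 in the same fit with all libraries, while calls over all genes went from 5108 to 687 and from 6485 to 2097. There, 6 genes (Insig1, Srebf2, Stard4, Mvd, Dhcr7 and Fasn) were lower in wild-type mice, where 1.25% of all genes were, and 0 were higher, where 2.06% of all genes were. In AcPb-/- mice 8 (Insig1, Srebf1, Srebf2, Mvk, Mvd, Lss, Dhcr7 and Fasn) were lower and 4 (Ebp, Cyp51, Elovl5 and Elovl6) higher, where 4.45% and 5.65% of all genes were. With a term for Xist reads within the genotypes, 5 were lower and 0 higher in wild-type mice, where 1.43% and 1.9% of all genes were, and 6 lower and 1 higher in AcPb-/- mice, where 3.74% and 4.39% were. The medians over the 31 genes in that fit were -0.25 and -0.14.

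**Figure D2:**
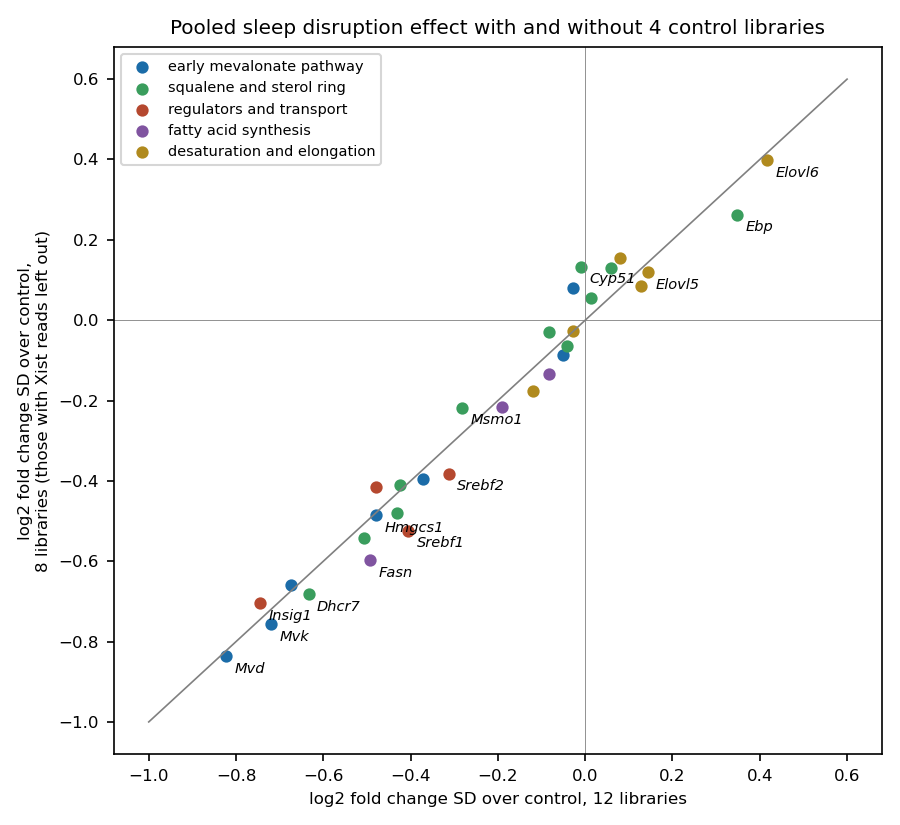
Log2 fold change of SD over control with genotype as a term, from all 12 libraries (horizontal axis) and from the 8 without Xist reads (vertical axis), 1 point for each of the 31 genes, coloured by role, with the line of equal values in grey. Mvd lay at -0.82 and -0.84 and Fasn at -0.49 and -0.60, and for Cyp51, near 0, the values were -0.0086 and 0.13.

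All 4 regulator and transport genes fell in both genotypes, where 9.16% of all genes did. Insig1 (chr5:28071363-28078662, plus strand, GRCm38) encodes the protein that retains the transcription factors in the endoplasmic reticulum, and its promoter is shown above. Its normalized counts, here and below in order of replicate number and after normalizing the 12 libraries together, were 3500.1, 3626 and 3286 in wild-type controls, 1890.4, 1927 and 1927 in wild-type SD, 2956, 3083 and 3428 in AcPb-/- controls and 1918, 2294 and 1901 in AcPb-/- SD. Every SD library was below every control library, and the 3 wild-type SD libraries lay close together. The log2 fold change was -0.86 (SE 0.059) in wild-type mice (adjusted p = 0.000135) and -0.63 (SE 0.089) in AcPb-/- mice (adjusted p = 0.00186). Without the libraries with Xist reads the value over both genotypes was -0.70 (adjusted p = 0.000544).

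Srebf2 (chr15:82147181-82205379, plus strand) encodes the factor that chiefly drives cholesterol synthesis genes. It had 12600.2, 12137 and 11002 counts in wild-type controls, 9502, 9561 and 9613 in wild-type SD, 12494, 11892 and 11606 in AcPb-/- controls and 9476, 10061 and 9497 in AcPb-/- SD, and the SD libraries were all lower than the controls. Its log2 fold change was -0.32 (SE 0.064) in wild-type mice (adjusted p = 0.00591) and -0.31 (SE 0.057) in AcPb-/- mice (adjusted p = 0.00570). It was -0.38 without the libraries with Xist reads (adjusted p = 0.000809). Srebf1 (chr11:60199089-60222581, minus strand) encodes the factor that chiefly drives fatty acid synthesis genes. Counts of Srebf1 were 2516, 2500.1 and 2081 in wild-type controls, 2109, 1876 and 1718 in wild-type SD, 2918, 2384 and 2632 in AcPb-/- controls and 1868, 1955 and 1789.9 in AcPb-/- SD. The wild-type groups overlapped, since the highest SD library lay above the lowest control, while the AcPb-/- groups did not. The log2 fold change was -0.32 (SE 0.094) in wild-type mice (adjusted p = 0.0328) and -0.49 (SE 0.080) in AcPb-/- mice (adjusted p = 0.00324). The wild-type call was lost without CTL-WT replicate 1 (adjusted p = 0.101), CTL-WT replicate 2 (0.131), SD-WT replicate 2 (0.102) or SD-WT replicate 4 (0.0707). Over both genotypes and without the libraries with Xist reads, Srebf1 was at -0.52 (adjusted p = 0.00163).

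Stard4 encodes a carrier that moves sterols between membranes. It had 1181, 1093 and 1102 counts in wild-type controls, 646, 761 and 774 in wild-type SD, 909, 1119 and 1105 in AcPb-/- controls and 812, 886 and 797 in AcPb-/- SD. No SD library reached a control library, but CTL-AcPbKO replicate 3 came close to the highest SD library. The fold change was -0.63 (SE 0.086) in wild-type mice (adjusted p = 0.00102) and -0.32 (SE 0.096) in AcPb-/- mice (adjusted p = 0.0372). In AcPb-/- mice the call was lost without CTL-AcPbKO replicate 4 (adjusted p = 0.133) or 5 (0.112), or without SD-AcPbKO replicate 2 (0.119) or 4 (0.118). Over both genotypes Stard4 was at -0.42 (adjusted p = 0.0289) without the libraries with Xist reads.

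**Figure D3:**
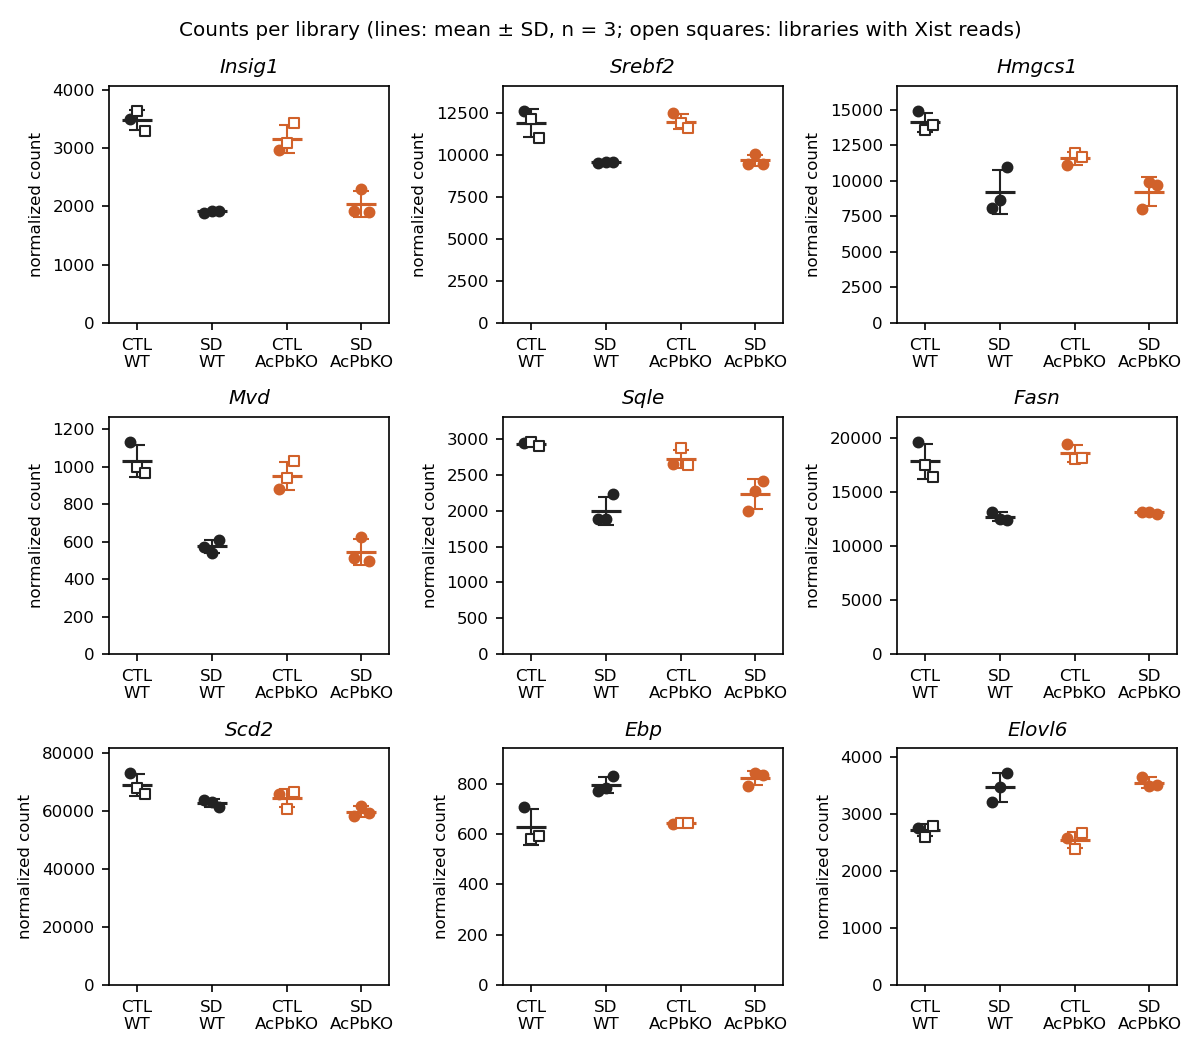
Normalized counts of 9 of the genes in each library, from a vertical axis that starts at 0, for controls (CTL) and SD in wild-type (black) and AcPb-/- (orange) mice. Lines give the mean ± SD of 3 libraries and open squares mark the control libraries with Xist reads, and for Insig1, Srebf2, Hmgcs1, Mvd, Sqle and Fasn every SD library lies below every control, for Ebp and Elovl6 above.

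Of the 7 early mevalonate genes, which lead from acetyl-CoA to farnesyl diphosphate, 5 fell in wild-type and 4 in AcPb-/- mice and none rose. Among all genes 12.2% fell and 13.2% rose in wild-type, and 13.3% and 14.1% in AcPb-/- mice. Acat2 (chr17:12942890-12960747, minus strand) encodes the cytosolic thiolase of the first step. Its counts were 1338, 1406 and 1322 in wild-type controls, 746, 754 and 934 in wild-type SD, 1342, 1361 and 1339.9 in AcPb-/- controls and 805, 967 and 902 in AcPb-/- SD. The SD libraries were lower throughout, and SD-WT replicate 4 was nearer to the controls than the other 2 of its group. Acat2 fell in wild-type and AcPb-/- mice, with log2 fold changes of -0.75 (SE 0.092) and -0.60 (SE 0.078) (adjusted p = 0.000710 and 0.00141) and was at -0.66 over both genotypes without the libraries with Xist reads (adjusted p = 0.00139). Of its exonic stretches of 100 bases, 28.9% also occur in Acat3, so reads may be split between them.

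Hmgcs1 (chr13:119690379-119708260, plus strand), the HMG-CoA synthase whose promoter held the sterol element letters, had 14890.1, 13599 and 13917 counts in wild-type controls, 8089.9, 8632 and 10978 in wild-type SD, 11088, 11998 and 11676 in AcPb-/- controls and 8051, 9899 and 9742 in AcPb-/- SD. SD libraries were below controls in each genotype, and the AcPb-/- controls were all below the wild-type controls. The fold change was -0.63 (SE 0.10) in wild-type mice (adjusted p = 0.00220) and -0.33 (SE 0.085) in AcPb-/- mice (adjusted p = 0.0208). The latter call was lost without CTL-AcPbKO replicate 4 (adjusted p = 0.0818) or 5 (0.0561). Hmgcs1 was at -0.48 over both genotypes without the libraries with Xist reads (adjusted p = 0.0196), and at -0.27 in AcPb-/- mice alone (adjusted p = 0.415). Of its exonic bases 12.1% overlap an antisense gene, and whether the counting used strand was not stated.

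Mvk (chr5:114444269-114460591, plus strand) encodes mevalonate kinase. It had 789.9, 858 and 729.8 counts in wild-type controls, 476, 499.6 and 471 in wild-type SD, 865, 756 and 839 in AcPb-/- controls and 470.0, 578 and 444 in AcPb-/- SD, with no overlap between SD and control libraries. Its fold changes were -0.71 (SE 0.085) and -0.72 (SE 0.11) (adjusted p = 0.000628 and 0.00254), and -0.76 over both genotypes without the libraries with Xist reads (adjusted p = 0.000673). Mvd (chr8:122433601-122443422, minus strand) encodes the decarboxylase that makes isopentenyl diphosphate. Its counts were 1129, 997 and 964 in wild-type controls, 572, 541 and 609 in wild-type SD, 881, 938 and 1029 in AcPb-/- controls and 512, 626 and 496 in AcPb-/- SD. All SD libraries lay well below all controls. Mvd fell in wild-type and AcPb-/- mice, with log2 fold changes of -0.84 (SE 0.086) and -0.80 (SE 0.11) (adjusted p = 0.000293 and 0.00147), with -0.84 over both genotypes without the libraries with Xist reads (adjusted p = 0.000540).

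The other 3 early genes did not pass in both genotypes. Fdps, farnesyl diphosphate synthase, passed in wild-type mice at -0.48 (SE 0.087) (adjusted p = 0.00367) and missed the threshold in AcPb-/- mice at -0.26 (SE 0.087) (adjusted p = 0.0546), where it passed without SD-AcPbKO replicate 3 (adjusted p = 0.00973). Of its exonic stretches 21.4% are shared with other gene models. Pmvk, phosphomevalonate kinase, was at -0.044 and -0.056 (adjusted p = 0.660 and 0.678). Idi1, isopentenyl diphosphate isomerase, was at -0.26 in wild-type and 0.20 in AcPb-/- mice (adjusted p = 0.0746 and 0.305), which are values of opposite sign.

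The 11 squalene and sterol ring genes were mixed. In wild-type mice 5 fell and 1 rose, and in AcPb-/- mice 4 fell and 1 rose. The shares of all genes were 12.2% lower and 13.2% higher in wild-type and 13.3% and 14.1% in AcPb-/- mice. The 1 that rose is not above those shares. Sqle (chr15:59315077-59331192, plus strand) encodes squalene epoxidase, a control point of the pathway. Sqle had 2949, 2954 and 2905 counts in wild-type controls, 1888, 1882 and 2229 in wild-type SD, 2659, 2871 and 2644 in AcPb-/- controls and 1998, 2282 and 2414 in AcPb-/- SD, with all SD libraries below all controls. The fold change was -0.56 (SE 0.073) in wild-type (adjusted p = 0.000895) and -0.29 (SE 0.079) in AcPb-/- mice (adjusted p = 0.0266). In AcPb-/- mice the call was lost without CTL-AcPbKO replicate 4 (adjusted p = 0.103) or 5 (0.0506) or SD-AcPbKO replicate 2 (0.0748). Over both genotypes and without the libraries with Xist reads Sqle was at -0.41 (adjusted p = 0.0119).

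Lss (chr10:76531588-76557138, plus strand) encodes lanosterol synthase, which closes the sterol ring. Its counts were 2161, 2178 and 1933 in wild-type controls, 1643, 1571 and 1439.6 in wild-type SD, 2202, 2091 and 2097 in AcPb-/- controls and 1556, 1659 and 1519.6 in AcPb-/- SD. SD and control libraries did not overlap, and Lss fell in wild-type and AcPb-/- mice, with log2 fold changes of -0.43 (SE 0.074) and -0.43 (SE 0.061) (adjusted p = 0.00297 and 0.00185), with -0.48 without the libraries with Xist reads (adjusted p = 0.000831). Tm7sf2 (chr19:6062821-6068373, minus strand) encodes a sterol C14 reductase. It had 842, 927 and 780.1 counts in wild-type controls, 586, 610.0 and 667 in wild-type SD, 954, 856 and 887 in AcPb-/- controls and 527, 679.9 and 626 in AcPb-/- SD, again without overlap. The fold changes of Tm7sf2 were -0.45 (SE 0.089) and -0.56 (SE 0.10) (adjusted p = 0.00541 and 0.00525), and -0.54 without the libraries with Xist reads (adjusted p = 0.00393). It shares 7.9% of its exonic stretches with Vps51, which it overlaps.

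Dhcr7 (chr7:143823145-143848410, plus strand) encodes the reductase of the last step of one branch to cholesterol. Its counts were 1856, 1745 and 1580.2 in wild-type controls, 1064, 1024 and 1173 in wild-type SD, 1585, 1579 and 1620.1 in AcPb-/- controls and 988, 1147 and 1024 in AcPb-/- SD. The SD libraries were below all controls. Dhcr7 fell in wild-type and AcPb-/- mice, with log2 fold changes of -0.67 (SE 0.080) and -0.60 (SE 0.072) (adjusted p = 0.000652 and 0.00108), and was at -0.68 over both genotypes without the libraries with Xist reads (adjusted p = 0.000463).

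Ebp (chrX:8185329-8193512, minus strand), the X-linked sterol isomerase, went the other way. It had 708, 582 and 591 counts in wild-type controls, 771, 781 and 829 in wild-type SD, 641, 643 and 645 in AcPb-/- controls and 789, 840.2 and 834 in AcPb-/- SD. Every SD library was above every control, and the highest control, CTL-WT replicate 1, is the wild-type control without Xist reads. Ebp rose by 0.34 (SE 0.092) in wild-type mice (adjusted p = 0.0208) and 0.36 (SE 0.069) in AcPb-/- mice (adjusted p = 0.00676). The wild-type call was lost without CTL-WT replicate 2 (adjusted p = 0.096) or 3 (0.0647), or without SD-WT replicate 1 (0.0581) or 2 (0.0646). Without the libraries with Xist reads the rise was 0.26 over both genotypes (adjusted p = 0.0255), and 0.16 in wild-type mice alone, which did not pass (adjusted p = 0.245).

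Of the remaining 6 ring genes 1 passed, in wild-type mice. Msmo1, a sterol C4 methyl oxidase, was at -0.39 (SE 0.077) in wild-type mice (adjusted p = 0.00542) and was at -0.17 (SE 0.093) in AcPb-/- mice (adjusted p = 0.217). Fdft1 (squalene synthase), Cyp51 (lanosterol demethylase), Nsdhl and Hsd17b7 (C4 demethylation) and Sc5d (a sterol desaturase) did not pass in either genotype, with log2 fold changes of -0.17 (Nsdhl) to -0.018 (Hsd17b7) in wild-type and of 0.0079 (Nsdhl) to 0.15 (Sc5d) in AcPb-/- mice. For Cyp51, which follows Lss in the pathway, the 95% interval was -0.25 to 0.037 in wild-type and -0.11 to 0.29 in AcPb-/- mice, and in AcPb-/- mice it passed as higher without the libraries with Xist reads, at 0.29 (adjusted p = 0.0492).

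**Figure D4:**
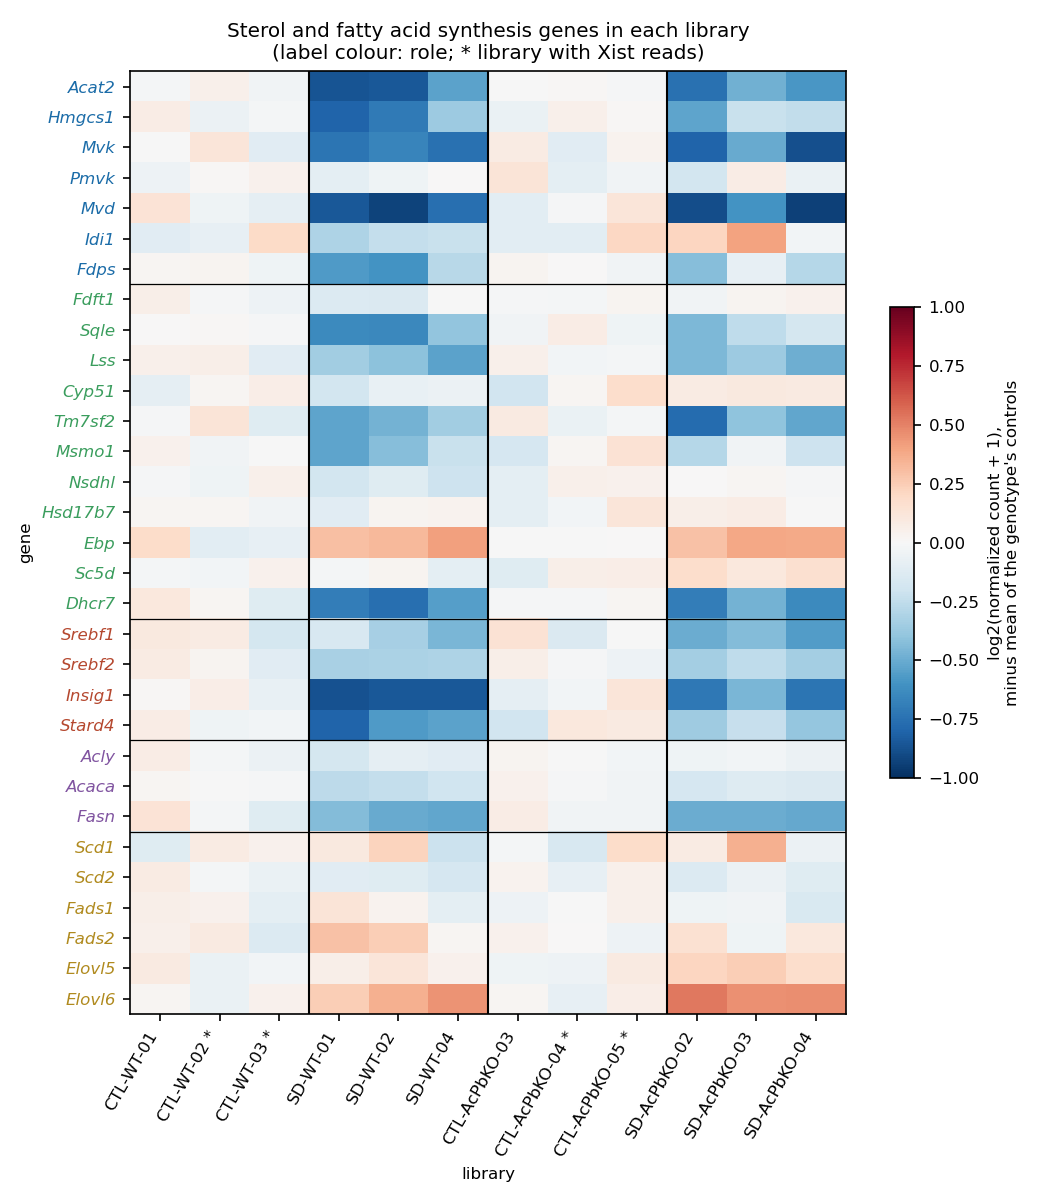
Log2(normalized count + 1) of the 31 genes (rows, in blocks by role) in the 12 libraries (columns), minus the mean of the 3 controls of the same genotype, from blue (lower) to red (higher). Control libraries with Xist reads carry an asterisk, and the SD columns of both genotypes are blue for most sterol genes and red for Ebp and Elovl6.

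Of the 3 genes of fatty acid synthesis, Fasn (chr11:120805846-120824547, minus strand), which encodes fatty acid synthase, fell in both genotypes. Its counts were 19610.5, 17554 and 16394 in wild-type controls, 13205, 12543 and 12424 in wild-type SD, 19507, 18096 and 18145 in AcPb-/- controls and 13142, 13196 and 13013 in AcPb-/- SD. All SD libraries were below all controls, and the 3 AcPb-/- SD libraries nearly coincided. Fasn fell in wild-type and AcPb-/- mice, with log2 fold changes of -0.49 (SE 0.073) and -0.50 (SE 0.058) (adjusted p = 0.00163 and 0.00102). Without the libraries with Xist reads it was at -0.60 (adjusted p = 0.000147). Acaca, acetyl-CoA carboxylase, which supplies the malonyl-CoA for Fasn, fell in wild-type mice, with a log2 fold change of -0.23 (SE 0.053) (adjusted p = 0.0103), a call lost without CTL-WT replicate 2 (adjusted p = 0.0505) or SD-WT replicate 1 (0.0529). In AcPb-/- mice Acaca was at -0.14 (SE 0.051) (adjusted p = 0.0679). Acly, ATP citrate lyase, the source of cytosolic acetyl-CoA for both pathways, was at -0.13 and -0.038 (adjusted p = 0.154 and 0.625).

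The 6 desaturation and elongation genes held no decline that passed the test in either genotype. Among all genes 12.2% fell in wild-type and 13.3% in AcPb-/- mice, and 0 of 6 is near these shares. In wild-type mice 1 of the 6 rose and in AcPb-/- mice 2, where 13.2% and 14.1% of all genes did. Scd2 (chr19:44293674-44306864, plus strand), the main stearoyl-CoA desaturase of brain, had the highest level per exon length of the 31 genes, with a mean over the libraries of 1176 TPM (reads per exon length, scaled to a fixed library total), followed by Hmgcs1 at 242. The lowest was Stard4 at 16.8. Counts of Scd2 were 72865, 67994 and 65738 in wild-type controls, 63622, 63144 and 61292 in wild-type SD, 65794, 60685 and 66383 in AcPb-/- controls and 58286, 61788 and 59071 in AcPb-/- SD. The wild-type groups did not overlap and the AcPb-/- groups did. The log2 fold changes were -0.14 (SE 0.074) and -0.10 (SE 0.076) (adjusted p = 0.213 and 0.363), with 95% intervals of -0.30 to 0.029 and -0.28 to 0.069. Over both genotypes Scd2 was at -0.12 (95% interval -0.22 to -0.021) and narrowly missed the threshold (adjusted p = 0.0509). With each library left out in turn, Scd2 passed as lower over both genotypes in 3 of 12 fits. Its value over both genotypes was -0.18 to -0.10 across all alternative fits.

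Scd1 (chr19:44394455-44407879, minus strand), a second stearoyl-CoA desaturase, had 8736, 10074 and 9787 counts in wild-type controls, 10199, 11084 and 8200.0 in wild-type SD, 8190.1, 7412 and 9418 in AcPb-/- controls and 8774, 10613 and 7979.8 in AcPb-/- SD. Its groups overlapped in both genotypes, and SD-WT replicate 4 and SD-AcPbKO replicate 4 were the lowest SD libraries of their genotype. The log2 fold changes were 0.035 (SE 0.10) and 0.13 (SE 0.12) (adjusted p = 0.839 and 0.466). Fads1 and Fads2, the desaturases of polyunsaturated fatty acids, were at 0.020 and 0.18 in wild-type and -0.073 and 0.074 in AcPb-/- mice, and neither passed, though Fads2 passed as higher in wild-type mice without SD-WT replicate 4 (adjusted p = 0.0172).

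Elovl6 (chr3:129532355-129638495, plus strand), which elongates palmitate to stearate, had 2751, 2594 and 2792 counts in wild-type controls, 3211, 3472 and 3712 in wild-type SD, 2574, 2394 and 2660.0 in AcPb-/- controls and 3655, 3485 and 3509 in AcPb-/- SD. Every SD library was above every control. Elovl6 rose by 0.35 (SE 0.068) and 0.48 (SE 0.060) (adjusted p = 0.00491 and 0.00117), and by 0.40 without the libraries with Xist reads (adjusted p = 0.00193). Elovl5, which elongates polyunsaturated fatty acids, was at 0.072 in wild-type mice (adjusted p = 0.437) and rose by 0.22 (SE 0.060) in AcPb-/- mice (adjusted p = 0.0288). That call was lost without any of CTL-AcPbKO replicates 3 (adjusted p = 0.0663) and 4 (0.11) and SD-AcPbKO replicates 2 (0.0802), 3 (0.0618) and 4 (0.0648).

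The SD effect was next compared between genotypes, which addresses whether the response of these genes needs the neuronal accessory protein. In the limma interaction over the 12 libraries 0 of the 31 genes and 0 of all 20978 genes passed. DESeq2 and edgeR on recovered reads also called 0 of the 31, and called 1 and 0 of all genes. At an unadjusted p under 0.05 in limma there were 3 of the 31, where 4.0% of all genes were. The 3 were Idi1 at 0.45 (95% interval 0.083 to 0.82), Sqle at 0.27 (0.025 to 0.51) and Stard4 at 0.31 (0.024 to 0.59), where a positive value means a smaller decline or a larger rise in AcPb-/- mice, and the adjusted p of each was 0.986. Positive values were found for 23 of the 31 genes and negative values for 8, with a median of 0.085 beside 0.0019 over all genes. The median half-width of the 95% intervals, which are not adjusted for the number of genes tested, was 0.24. Idi1, Sqle and Stard4 lay beyond that size and still did not pass. The adjusted test could thus miss differences below 0.24 and larger ones. For Insig1 the interval was -0.013 to 0.46, for Hmgcs1 -0.028 to 0.61, for Mvd -0.27 to 0.34 and for Fasn -0.22 to 0.18.

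Between undisturbed AcPb-/- and wild-type mice 0 of the 31 genes passed in limma, where 0.0197% of all genes did, and 4 of the 31 had an unadjusted p under 0.05, where 8.53% of all genes did. These were Hmgcs1 at -0.29 (SE 0.057) (adjusted p = 0.254), Idi1 at -0.39 (SE 0.11), Msmo1 at -0.26 (SE 0.075) and Elovl5 at -0.17 (SE 0.063), all lower in AcPb-/- mice. For Hmgcs1 the 3 AcPb-/- controls were below the 3 wild-type controls, and DESeq2 called it (adjusted p = 0.00403), while edgeR called none of the 31. Of all 20273 genes DESeq2 called 104 and edgeR 8. In each of these control groups 2 of 3 libraries held Xist reads. Leaving them out sets 1 library against 1, so the fit of all 4 groups then cannot decide on the 31 genes. Their median log2 fold change was -0.084 with these libraries and -0.14 without. After SD, 0 of the 31 genes passed between genotypes in limma, where 0.0145% of all genes did. DESeq2 and edgeR also called 0 of the 31, and called 99 and 9 of all 20621 genes. In limma 0 of the 31 had an unadjusted p under 0.05, where 6.13% of all genes did. The log2 fold changes after SD ranged from -0.13 to 0.22. These comparisons share their libraries with those of SD.

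A list of 45 further genes of sterol and fatty acid metabolism was counted in the same fits. Of 29 further synthesis steps and genes of SREBP processing, 9 fell and 4 rose in wild-type mice and 11 fell and 6 rose in AcPb-/- mice. Over all genes 12.2% fell and 13.2% rose in wild-type and 13.3% and 14.1% in AcPb-/- mice, so the 4 that rose in wild-type mice are near the share of all genes. The median of the list was -0.11 in wild-type and -0.015 in AcPb-/- mice. Scap, the escort of the SREBP proteins, fell, with log2 fold changes of -0.27 in wild-type and -0.36 in AcPb-/- mice (adjusted p = 0.0111 and 0.00506). Aacs, acetoacetyl-CoA synthetase, which feeds ketone bodies into the pathway, fell, at -0.57 and -0.61 (adjusted p = 0.000567 and 0.00127), and so did Mid1ip1, an activator of acetyl-CoA carboxylase, at -0.51 and -0.67 (adjusted p = 0.000383 and 0.00342). Scd3, a further stearoyl-CoA desaturase, rose by 0.47 and 0.58 (adjusted p = 0.0158 and 0.00864), and so did Ggps1, which makes geranylgeranyl diphosphate from farnesyl diphosphate, by 0.26 and 0.35 (adjusted p = 0.0362 and 0.00917). Of 16 genes of sterol export, turnover and storage, 0 fell and 2 rose in wild-type mice, and 3 fell and 1 rose in AcPb-/- mice, which are few genes beside the same shares of all genes, and nothing is read from them. The median of this list was -0.023 in wild-type and -0.045 in AcPb-/- mice. Gramd1b, a carrier of plasma membrane cholesterol to the endoplasmic reticulum, rose in both (log2 fold changes 0.50 and 0.47, adjusted p = 0.000776 and 0.00337). Cyp46a1, the neuronal cholesterol 24-hydroxylase, was at -0.18 in wild-type mice (adjusted p = 0.0947) and fell in AcPb-/- mice, at -0.39 (adjusted p = 0.00222). These genes were named after their values were seen.

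Markers of oligodendrocytes, astrocytes and excitatory neurons moved with SD in part. Among all genes 12.2% were lower and 13.2% higher in wild-type SD, and 13.3% and 14.1% in AcPb-/- SD. Of 7 oligodendrocyte markers, 4 (Mog, Mag, Cnp and Cldn11) were lower in wild-type SD and 1 (Cnp) in AcPb-/- SD, and none was higher. Their summed normalized count was 80339 to 106509 in controls and 66706 to 94987 after SD in wild-type mice. In AcPb-/- mice it was 39933 to 94387 and then 54181 to 82374, and these ranges overlapped in both genotypes. The marker Mbp made up the largest part of the sum and was at -0.014 in wild-type mice (adjusted p = 0.951). In AcPb-/- controls Mbp had 62449 counts in replicate 3, without Xist reads, and 25098 and 35004 in replicates 4 and 5, with them. The sum thus says little of Mog, Mag, Cnp and Cldn11. Of 6 astrocyte markers 2 were lower in each genotype (Aqp4 and Aldh1l1 in wild-type, Aldh1l1 and Sox9 in AcPb-/- mice), with sums of 51023 to 59814 in controls and 52910 to 58951 after SD in wild-type mice, and 51180 to 56643 and then 51037 to 54498 in AcPb-/- mice. No marker of either list was at 0. The sum of the 4 excitatory neuron markers did not overlap between controls and SD, at 124380 to 129980 and then 104944 to 119784 in wild-type mice and 127559 to 133809 and then 114681 to 124972 in AcPb-/- mice. Of these 4, Neurod6 rose by 0.94 and 1.11 (adjusted p = 0.000189 and 0.000610), and the other 3 did not pass in either genotype, with Slc17a7 at -0.24 and -0.21 (adjusted p = 0.0662 and 0.0860). The part of these markers in the decline of the sterol genes was not tested.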

How the data were processed

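The authors sequenced cortical RNA from TruSeq Stranded mRNA libraries. Per the labels and their processing notes, reads were aligned to mm10 with HISAT2 (version 2.2.1) and compared with DESeq2. The counter is HTSeq in the study's methods and featureCounts in those notes, and the annotation and strand setting are not given in the sources used here. The authors deposited 5 tables of 2 groups each, whose per-library values are signal, read counts divided by a size factor set within the table. They also hold the authors' mean, log2 fold change, its standard error, Wald statistic and p-values, which were not used. The labels list 16 samples, of which 12 have a column and 4 were not analysed here.

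Undoing the size factors gave whole reads for 100.0% of 732630 values (within 0.01 read), and 0 counts differed between tables. Totals on genes were 26504840 to 41615582 reads in controls and 58770286 to 71857505 after SD. Replicates differed beyond sampling noise, so none was a copy.

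Every gene with reads in 1 or more libraries was tested with limma (version 3.58.1, R 4.3.3) with a variance trend on log2(normalized count + 1), a scale that understates changes of low genes, within each table. The SD effect over both genotypes and the interaction were fitted on the 12 libraries, normalized together by median of ratios. P-values were adjusted by Benjamini-Hochberg over all genes tested, and the threshold was an adjusted p under 0.05. On recovered reads edgeR (version 4.0.16) called 5368 genes in wild-type and 5682 in AcPb-/- mice, and DESeq2 (version 1.42.0) 5378 and 5820. Other alternatives were TMM factors, a mean of at least 10, pseudocounts of 0.5 and 10, no variance trend, thinned reads (seed 1), the libraries with Xist reads as a term or left out, a replicate block, each library left out in turn, and 1 fit of all 4 groups.

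The 31 genes, their roles and the marker and pathway lists were chosen with earlier results of these data known, and 2 marker genes are not reported here. Values per library are given for genes past the threshold in both genotypes, in a knockout effect or in the interaction, and for 8 regulators and enzymes whatever their values. Positions and exon lengths are from GENCODE M21 (GRCm38), matched by symbol for 95.7% of genes. Exonic stretches of 100 bases were compared between genes. Promoters are from RefSeq. The fits were checked on simulated counts. Summaries were made in Python 3.11.15 (pandas 2.3.3, NumPy 2.4.6) and figures in matplotlib 3.10.9.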

Additional observations from a re-analysis of the deposited data

How the results depend on the processing

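Of the 31 genes, 18 were past the threshold for SD in wild-type mice and 16 in AcPb-/- mice. With a term for Xist reads these counts were 5 and 7, and with the libraries with Xist reads left out of a fit of all 4 groups 6 and 12, while the medians over the 31 genes stayed at -0.25 and -0.14 (-0.26 and -0.14 with all libraries). Calls over all genes went from 5186 and 5633 to 679 and 1672 with the term, and from 5108 and 6485 in the fit of all 4 groups to 687 and 2097 with the libraries left out. Leaving out each library in turn gave 15 to 18 in wild-type mice, 12 to 16 in AcPb-/- mice and 19 to 21 over both genotypes. Calls over all genes in these fits were 2699 to 6222, 3393 to 5412 and 7994 to 8914. For both knockout effects and the interaction, leaving out each library gave 0 of the 31. Calls over all genes were then 0 to 168 in controls, 0 to 4 after SD and 0 to 9 for the interaction. DESeq2 called 1 of the 31 genes, Hmgcs1, between undisturbed AcPb-/- and wild-type mice, where it called 104 of all 20273 genes. With reads thinned to the smallest total the counts were 18, 15 and 19 over both genotypes, so they were alike at equal depth. Thinned reads gave 4769, 5120 and 8169 calls over all genes. Scd1, not called in wild-type mice, changed sign without CTL-WT replicate 1 (-0.027) and without SD-WT replicate 2 (-0.059), in a range of -0.059 to 0.16 over the libraries left out. Over the 17 genes given by library and all alternatives, 260 values kept direction and call in wild-type mice and 44 lost the call, and in AcPb-/- mice 265 and 41. Over both genotypes 382 kept them and 9 gained a call. The causes were not tested.

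With the replicate number as a block 0 of the 31 genes were called in either genotype. Of all genes, 0 of 20417 were called in wild-type and 0 of 20574 in AcPb-/- mice. Since no gene passed at all, the calls with the block do not decide on the 31 genes within a genotype. The median log2 fold changes of the 31 genes with the block were -0.25 in wild-type and -0.064 in AcPb-/- mice. Over both genotypes it called 18 of the 31, where 7907 of all 20978 genes were called. Deviations of libraries with the same number correlated at -0.423 to 0.229 (10 pairs). Those with other numbers correlated at -0.399 to 0.482 (44 pairs). These ranges overlap and do not decide whether equal numbers mark libraries handled together. Between SD-WT and SD-AcPbKO libraries, none with Xist reads, pairs of the same number were at 0.212 (replicate 2) and 0.229 (replicate 4). Pairs of other numbers there were at -0.29 to 0.101. The block could not be fitted for the knockout effect in controls, which share 1 number, nor a term for Xist reads after SD, where no library held them.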
